A study of Mus musculus with 8 samples.

Results

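The transforming growth factor beta (TGF-beta) pathway was examined through 10 genes: the ligand Tgfb1, the receptors Tgfbr1 and Tgfbr2, the signal carriers Smad2, Smad3 and Smad4, the feedback inhibitors Smad7 and Smurf2, and the repressors Ski and Skil. They were chosen by symbol as a pathway that keeps T cells naive, and all 10 have a row among the 41730 gene rows of the count table. The cells were naive mouse CD8+ T cells, isolated magnetically (MojoSort kit). One group of 4 libraries came from cells cultured for 24 h with 2 µM RGX-104 (replicates 5 to 8), which activates the liver X receptors (LXR), nuclear receptors for oxysterols, and the other 4 from cells cultured as long with its solvent DMSO (replicates 1 to 4). The series asks which transcripts the agonist changes, and its title speaks of a pre-effector state. No animal, strain, age, batch or day is given for any library, so every p-value here rests on differences between libraries that could be technical repeats.

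TGF-beta binds TGFBR2, which activates the kinase TGFBR1, and this kinase in turn phosphorylates SMAD2 and SMAD3. These join SMAD4, enter the nucleus and turn genes on or off with other factors. SKI and SKIL hold SMAD targets off, and SMAD7 with ubiquitin ligases such as SMURF2 shuts the receptor down, while Smad7 and Skil are themselves known targets of the pathway. In T cells this signal is known to restrain activation and effector function and to help naive cells persist.

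Total counts lay between 16196217 and 28287445 in the RGX-104 libraries and between 16308726 and 24353797 in the DMSO libraries. Genes detected numbered 10442 to 10990 in RGX-104 and 9772 to 10908 in DMSO. DMSO replicates 1, 2 and 3, at 10047, 9772 and 10194, lay below every RGX-104 library. Only DMSO replicate 4 lay within the RGX-104 range, so the number of genes detected partly follows the treatment. The zeros among low genes gave an estimate of 250375 to 344257 apparent molecules per RGX-104 library and 182352 to 316834 per DMSO library, so 1 apparent molecule was worth 2.90 to 3.99 CPM in RGX-104 and 3.16 to 5.48 CPM in DMSO (CPM, counts scaled to a common library total). The agonist's known targets differed far beyond the spread. Abca1, a cholesterol exporter, averaged 346 ± 34.8 CPM in RGX-104 and 6.61 ± 5.59 CPM in DMSO (SD, n = 4 each, log2 fold change 5.68 ± 0.65 SE, edgeR adjusted p = 8.63e-05). Abcg1, another sterol exporter, averaged 773 ± 56.1 CPM in RGX-104 and 74.4 ± 42.1 CPM in DMSO, and Srebf1, a regulator of fatty acid synthesis, 480.1 ± 80.9 CPM in RGX-104 and 90.8 ± 7.61 CPM in DMSO. Summed CD8 T cell identity genes lay between 4449 and 4832 CPM in RGX-104 and between 4314 and 4525 CPM in DMSO. One of these 12 genes, Cd2, had no count in any library although T cells are known to carry it, so a count of 0 in this table was not read as absence.

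No member of the pathway passed the test for a rise or a fall with the agonist. Of the 10 members, all were tested and none was called in either direction (edgeR quasi-likelihood test, Benjamini-Hochberg adjustment over 10037 genes, adjusted p = 1.00 for each), where 0.110% of all genes tested were called, 0.0996% as higher and 0.00996% as lower. Without adjustment, a p under 0.05 was reached by 0 members in edgeR, against 3.81% of all genes, by 0 in limma-voom, against 6.65%, and by 1 in DESeq2, Smad3, against 6.76%. DESeq2 and limma-voom also called 0 members at an adjusted p under 0.05, where they called 0.309% and 0.139% of all genes. DESeq2 gave no adjusted p for Tgfb1, Tgfbr1 and Smad2. The RGX-104 and DMSO libraries overlapped in every member, while the groups stood apart in 3.56% of all genes tested. Of the log2 fold changes, RGX-104 over DMSO, 4 were above 0 and 6 below, from -0.43 for Tgfbr1 to 0.75 for Smad3. Their median was -0.08, against 0.01 over all genes tested, and it ran from -0.20 to 0.0313 with a library left out.

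**Figure D1:**
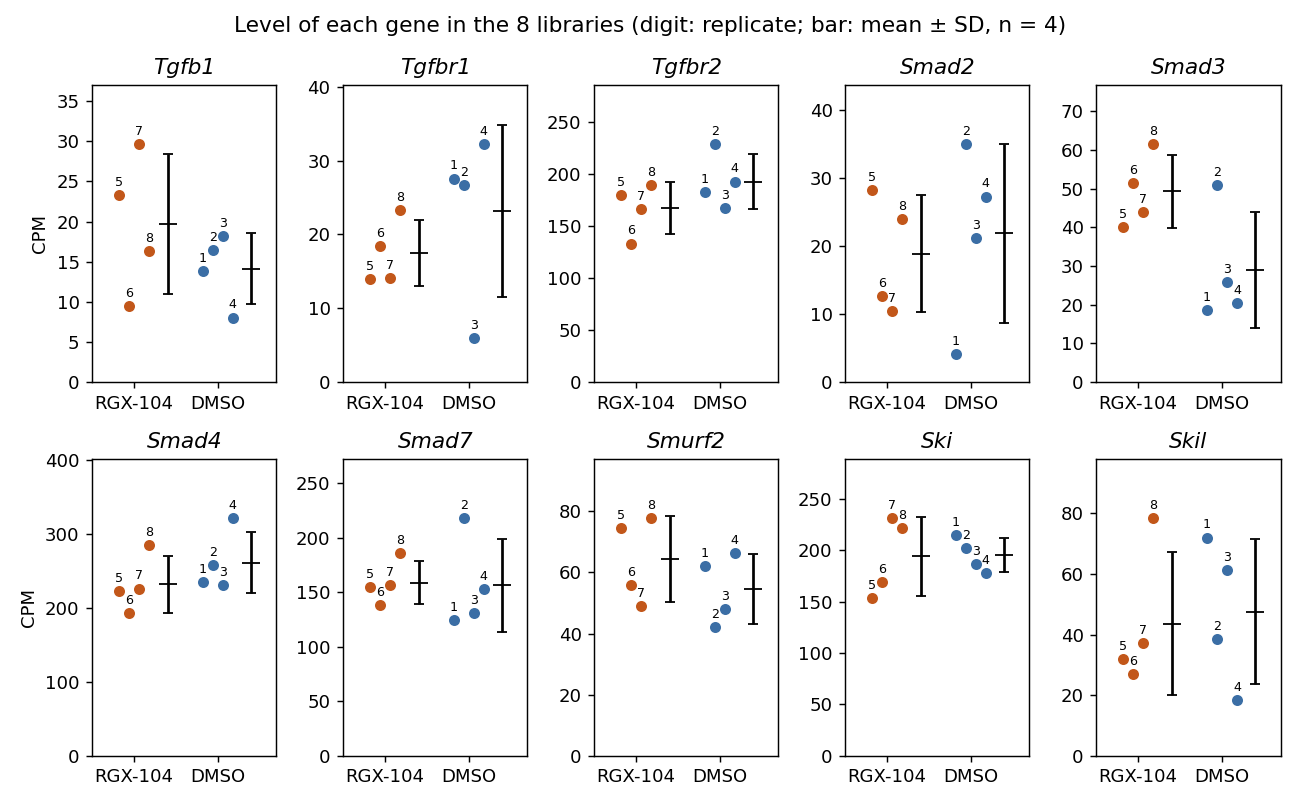
Level of each gene (CPM, vertical axes from 0) in the 4 RGX-104 and 4 DMSO libraries. Each point is a library with its replicate digit, and the bar is the mean ± SD of the group. RGX-104 and DMSO points overlap in every panel; DMSO replicate 1 of Smad2 at 4.06 CPM and DMSO replicate 3 of Tgfbr1 at 5.99 CPM lie below the other libraries.

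A result that does not pass leaves a range of sizes that the data allow, and this range differed among members. For Tgfbr2, Smad4, Smad7, Smurf2 and Ski the 95% interval of the difference lay inside a 2-fold change in either direction. These 5 members averaged 50 CPM or more, and among all genes at that level 85.8% had an interval inside 2-fold. For Tgfb1, Tgfbr1, Smad2, Smad3 and Skil, the 5 members under 50 CPM, the interval reached beyond 2-fold in at least 1 direction. Over all genes tested 34.3% had an interval inside 2-fold.

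**Figure D2:**
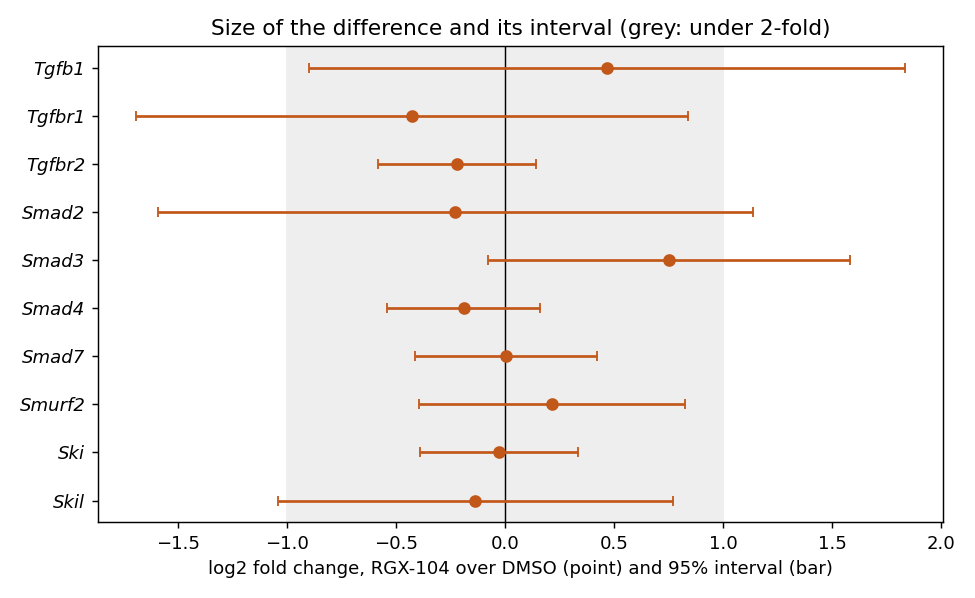
Log2 fold change of each gene, RGX-104 over DMSO (points), with its 95% interval (bars). The grey band marks changes under 2-fold. All 10 intervals include 0, and those of Tgfbr2, Smad4, Smad7, Smurf2 and Ski stay inside the band.

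The ligand Tgfb1, which T cells make and store in a latent form, was low. It stood at 23.3, 9.52, 29.6 and 16.3 CPM in RGX-104 replicates 5 to 8, against 13.8, 16.5, 18.1 and 8.03 CPM in DMSO replicates 1 to 4. The 2 highest libraries were RGX-104 replicates 7 and 5, but RGX-104 replicate 6 lay below 3 of the 4 DMSO libraries. Its log2 fold change was 0.47 ± 0.65 (SE, 95% interval -0.90 to 1.83), so the interval spans a 0.536-fold to a 3.56-fold level. It was 0.20 without RGX-104 replicate 7, 0.27 without DMSO replicate 4 and 0.69 without RGX-104 replicate 6. Platelets are a known source of TGF-beta 1 transcripts. Of 8 platelet and megakaryocyte markers 6, Pf4, Ppbp, Gp9, Gp1bb, Gp5 and Treml1, had no count in any library. The summed list lay between 36.0 and 54.8 CPM in RGX-104 and between 24.9 and 48.3 CPM in DMSO, which leaves Itga2b and Itgb3 as its whole signal. Tgfb1 lies on GRCm38 at chromosome 7, 25687002 to 25705077, on the plus strand.

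The receptors were measured with unequal precision. Tgfbr2, the chain that binds the ligand, stood at 180.2, 133, 166 and 189.6 CPM in RGX-104 replicates 5 to 8, against 182, 229, 167 and 193 CPM in DMSO replicates 1 to 4. RGX-104 replicate 6 was the lowest library and DMSO replicate 2 the highest, and the other libraries of both groups lay within one range. Means were 167 ± 24.7 CPM in RGX-104 and 193 ± 26.2 CPM in DMSO (SD, n = 4 each), a log2 fold change of -0.22 ± 0.17 (SE, 95% interval -0.58 to 0.14). A level below 0.667 of that in DMSO lies outside this interval. Tgfbr1, the kinase chain, stood at 14.0, 18.4, 14.1 and 23.3 CPM in RGX-104 and at 27.6, 26.7, 5.99 and 32.2 CPM in DMSO. All 4 RGX-104 libraries lay below 3 of the DMSO libraries and above DMSO replicate 3. The log2 fold change of Tgfbr1 was -0.43 ± 0.60 (95% interval -1.69 to 0.84), and it was -0.75 without DMSO replicate 3, -0.22 without DMSO replicate 4 and -0.07 by limma-voom. Tgfbr1 lies at chromosome 4, 47353222 to 47414931 (plus strand), and Tgfbr2 at chromosome 9, 116084293 to 116175360 (minus strand).

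The SMADs that the receptor phosphorylates gave the largest difference among the members, in Smad3, and the widest range within a group, 8.61-fold for Smad2 in DMSO. Smad3, which binds DNA directly, stood at 40.1, 51.5, 44.0 and 61.5 CPM in RGX-104 replicates 5 to 8, against 18.7, 50.9, 25.9 and 20.5 CPM in DMSO replicates 1 to 4. All 4 RGX-104 libraries lay above DMSO replicates 1, 3 and 4, and DMSO replicate 2 lay among the RGX-104 values. Means were 49.3 ± 9.42 CPM in RGX-104 and 29.0 ± 14.9 CPM in DMSO (SD, n = 4 each). The log2 fold change was 0.75 ± 0.40 (SE, 95% interval -0.08 to 1.58), and it did not pass (adjusted p = 1.00 by edgeR and 0.495 by DESeq2). Without DMSO replicate 2 it was 1.16, still short of the threshold (edgeR adjusted p = 0.947), and without DMSO replicate 1 it was 0.59. Against DMSO replicate 4 alone, the DMSO library with the most genes detected and among the low ones for Smad3, it was 1.23. Values against this library alone are given without a test, since the spread there comes from the RGX-104 group only.

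Smad2, its close relative that binds DNA through partners, stood at 28.2, 12.7, 10.5 and 24.0 CPM in RGX-104, against 4.06, 35.0, 21.2 and 27.3 CPM in DMSO. The lowest and the highest library were both in DMSO, and all RGX-104 libraries lay between them. Its log2 fold change was -0.23 ± 0.65 (95% interval -1.59 to 1.14). It was 0.08 without DMSO replicate 2 and 0.14 by limma-voom, so no direction can be given. On GRCm38, Smad3 lies at chromosome 9, 63646767 to 63757994 (minus strand), and Smad2 at chromosome 18, 76241580 to 76310963 (plus strand).

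Smad4, the common partner of both, stood at 223, 193, 226 and 286 CPM in RGX-104 replicates 5 to 8, against 235, 258, 232 and 322 CPM in DMSO replicates 1 to 4. DMSO replicate 4 was the highest library and RGX-104 replicate 6 the lowest. Means were 232 ± 38.8 CPM in RGX-104 and 262 ± 41.7 CPM in DMSO, a log2 fold change of -0.19 ± 0.17 (SE, n = 4 each, 95% interval -0.54 to 0.16). Against DMSO replicate 4 alone, the highest library, the log2 fold change was -0.51, and without that library it was -0.07. Smad4 lies at chromosome 18, 73639009 to 73703780, on the minus strand.

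The feedback inhibitor Smad7, an immediate target of SMAD signalling in many cells, did not differ beyond its spread. It stood at 155, 138, 157 and 186 CPM in RGX-104 replicates 5 to 8, against 125, 218, 131 and 153 CPM in DMSO replicates 1 to 4. All RGX-104 libraries fell between the lowest and the highest DMSO library. The means were 159 ± 19.8 CPM in RGX-104 and 157 ± 42.7 CPM in DMSO (SD, n = 4 each). The log2 fold change was 0.00445 ± 0.198 (SE), and its 95% interval of -0.41 to 0.42 spans 0.752-fold to 1.34-fold. Its sign changed with the scaling (-0.0121 under the size factors of DESeq2, which also moved the all-gene median below 0). Smad7 lies at chromosome 18, 75367529 to 75395935, on the plus strand.

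Smurf2, a ubiquitin ligase that SMAD7 brings to the receptor, stood at 74.6, 55.7, 49.0 and 77.8 CPM in RGX-104, against 62.1, 42.1, 48.0 and 66.4 CPM in DMSO. The 2 highest libraries were RGX-104 replicates 8 and 5, and the others overlapped. Its log2 fold change was 0.22 ± 0.29 (95% interval -0.40 to 0.83), and it was 0.10 without DMSO replicate 2 and -0.08 against DMSO replicate 4 alone. It lies at chromosome 11, 106820066 to 106920715, on the minus strand.

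Of the repressors, Ski was measured with a narrow interval and Skil with a wide one. Ski stood at 154, 169, 231 and 222 CPM in RGX-104 replicates 5 to 8, against 215, 202, 187 and 177 CPM in DMSO replicates 1 to 4. The 2 lowest and the 2 highest libraries were all in RGX-104, with the DMSO libraries between them. Means were 194 ± 38.4 CPM in RGX-104 and 195 ± 16.6 CPM in DMSO (SD, n = 4 each), with a log2 fold change of -0.03 ± 0.17 (95% interval -0.39 to 0.33). Ski had the narrowest range in DMSO, 1.21-fold between its lowest and highest library. Skil (SnoN) stood at 31.9, 27.1, 37.0 and 78.5 CPM in RGX-104 and at 72.0, 38.4, 61.3 and 18.5 CPM in DMSO. Its libraries spread 2.90-fold in RGX-104 and 3.89-fold in DMSO, with RGX-104 replicate 8 the highest and DMSO replicate 4 the lowest. The log2 fold change of Skil was -0.14 ± 0.43 (95% interval -1.04 to 0.77). It was 0.13 without DMSO replicate 1 and 0.15 in the fit that includes the number of genes detected, so no direction can be given. Ski lies at chromosome 4, 155154075 to 155222592 (minus strand), and Skil at chromosome 3, 31095058 to 31122577 (plus strand).

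The spread within groups was larger in the members with few counts. The coefficient of variation within groups was 14.2% to 21.5% in Tgfbr2, Smad4, Smad7, Smurf2 and Ski and 38.3% to 53.3% in Tgfb1, Tgfbr1, Smad2, Smad3 and Skil. Sampling of the apparent molecules alone would give 12.4% to 25.2% in the first 5 and 28.8% to 47.3% in the others. Skil, at 52.2% against 28.8%, lay furthest above that value. Tgfb1 (38.3% against 47.3%), Smurf2 (21.5% against 25.2%), Tgfbr2 (14.2% against 14.5%) and Tgfbr1 lay below it. Whether sampling accounts for the spread was not tested.

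**Figure D3:**
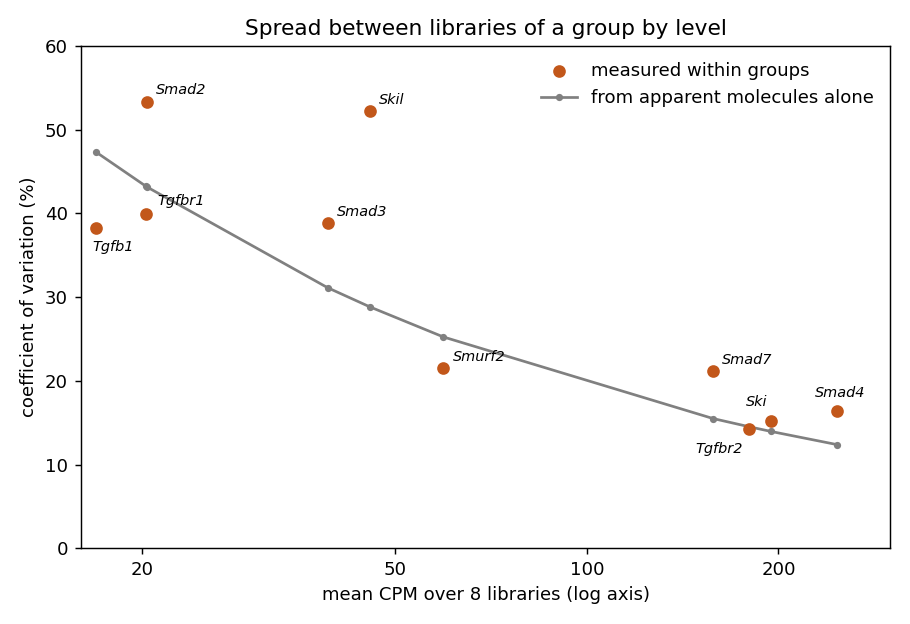
Coefficient of variation within groups (percent, vertical axis) against mean CPM over 8 libraries (log axis) for each gene. Points are measured, and the grey line is what sampling of the estimated apparent molecules alone would give. Skil lies at 52.2% where the line gives 28.8%.

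Smad3 had the smallest p among the members, so genes of like profile were looked up for it. Among 3544 genes of at least 50 CPM, the nearest profiles over the 8 libraries (Euclidean distance of standardised log2(CPM + 1)) were those of Nufip2, Thrap3 and Txnip, at 1.05, 1.08 and 1.09, where the median gene stood at 3.67. Nufip2 averaged 733 ± 72.1 CPM in RGX-104 and 617 ± 45.3 CPM in DMSO. Thrap3 averaged 241 ± 21.6 CPM in RGX-104 and 201 ± 25.9 CPM in DMSO. Txnip, a regulator of glucose uptake, averaged 764 ± 58.9 CPM in RGX-104 and 637 ± 104 CPM in DMSO. None of these genes was called. Profiles over 8 libraries of the same source say nothing of shared control.

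Promoters of 6 of the 10 members were matched by symbol in the RefSeq table of GRCm38.p6, 7 start sites in all. The 250 bases before the start are shown for Tgfbr2, the receptor with the narrow interval, and for Smad3, the member with the largest difference, since the agonist's receptors and the SMADs both act through short DNA elements. Capitals mark the SMAD core CAGAC on either strand. Tgfbr2 lies on the minus strand, chr9:116175364-116175613, and Smad3 on the minus strand, chr9:63757995-63758244, each printed 5′ to 3′ toward the start.
Tgfbr2: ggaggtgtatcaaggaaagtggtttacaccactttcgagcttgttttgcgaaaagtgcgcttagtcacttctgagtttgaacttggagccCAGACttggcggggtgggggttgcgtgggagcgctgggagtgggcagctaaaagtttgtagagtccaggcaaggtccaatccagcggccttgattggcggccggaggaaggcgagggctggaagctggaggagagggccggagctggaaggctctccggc
Smad3: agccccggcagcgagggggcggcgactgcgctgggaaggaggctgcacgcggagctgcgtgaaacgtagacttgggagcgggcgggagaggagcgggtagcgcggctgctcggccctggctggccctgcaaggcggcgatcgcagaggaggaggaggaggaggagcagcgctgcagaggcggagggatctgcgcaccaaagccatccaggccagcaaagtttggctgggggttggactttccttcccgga
The Tgfbr2 promoter holds 1 core, which begins 160 bases before the start, and the Smad3 promoter holds none. Of the 7 promoters 3 hold the core, in Tgfbr1, Tgfbr2 and Smurf2, against 42.2% of 32851 mouse promoters. For Tgfbr1 the core lies in the window chr4:47385966-47386215, inside the gene. The window just before the gene's start, chr4:47352972-47353221, holds none. The SMAD box GTCTAGAC, in which a core-like GTCT meets its reverse complement and which does not contain CAGAC itself, occurs in none of the 7 and in 0.167% of all. The LXR element DR4, searched as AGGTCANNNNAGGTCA on both strands, occurs in none of the 7 and in 0.0152% of all. It was found in 0 of the 10093 promoters of tested genes. A search for this exact form therefore could not set the members apart from other tested genes, and nothing is drawn from it. These letters were searched in this window only, and a match or its lack says nothing of binding.

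The rest of the pathway was taken from 8 lists with 99 further genes. Of these, 67 could be tested and none was called in either direction by edgeR or limma-voom. DESeq2 called none either. It gave no adjusted p for some of them, Itgav, Lrrc32, Tab1, Itgae and Id1 included, so it could not call these. Without adjustment 4 of the 67 had an edgeR p under 0.05 (5.97%, against 3.81% of all genes). These were Usp9x, Ep300, Junb and S1pr1. Of the log2 fold changes 37 were above 0 and 30 below, with a median of 0.03.

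Among ligands and factors that release latent TGF-beta, 4 of 16 could be tested, with 4 above 0 and a median of 0.36. It was 0.16 without DMSO replicate 2, 0.0501 in the fit that includes the number of genes detected and -0.0158 against DMSO replicate 4 alone. Itgav (log2 fold change 0.38 ± 2.03 SE) and Lrrc32 (0.09 ± 2.40 SE), named after their values were seen, are among these 4. Both had DMSO libraries without a count, so no direction can be given for them. Furin, the protease that cleaves the precursor, averaged 107 ± 34.1 CPM in RGX-104 and 80.2 ± 29.0 CPM in DMSO (log2 fold change 0.39), and Nrros, which anchors latent TGF-beta on myeloid cells, 55.6 ± 17.4 CPM in RGX-104 and 43.0 ± 15.1 CPM in DMSO. No count in any library was found for 8 of the 16, among them Tgfb3, Itgb6 and Itgb8. Of 12 other receptors 6 could be tested, 4 above 0 and 2 below, with a median of 0.21. The 4 above 0 averaged under 50 CPM in both groups, and the 2 below were Tgfbr3 and Acvr1b. Tgfbr3, a co-receptor that presents the ligand, averaged 57.2 ± 17.0 CPM in RGX-104 and 70.7 ± 17.8 CPM in DMSO, and Acvr1b, an activin receptor that signals through the same SMADs, 99.8 ± 32.5 CPM in RGX-104 and 108 ± 32.7 CPM in DMSO. Neither passed.

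Other SMADs and adaptors had 8 of 11 genes tested, 4 above and 4 below 0, with a median of -0.07. Smad5, of the bone morphogenetic protein branch, averaged 102 ± 17.9 CPM in RGX-104 and 87.1 ± 7.20 CPM in DMSO. Fkbp1a, which holds the kinase chain inactive, averaged 261 ± 31.5 CPM in RGX-104 and 256 ± 17.6 CPM in DMSO (log2 fold change 0.01, 95% interval -0.30 to 0.32). Strap, an adaptor of SMAD7, averaged 46.4 ± 12.6 CPM in RGX-104 and 62.5 ± 23.1 CPM in DMSO (log2 fold change -0.45 ± 0.33 SE).

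All 12 ubiquitin ligases and deubiquitinases of the pathway could be tested, 5 above and 7 below 0, with a median of -0.13. Usp9x, a deubiquitinase that acts on SMAD4, was at 28.0, 42.2, 30.2 and 20.7 CPM in RGX-104 replicates 5 to 8, against 68.2, 69.6, 44.1 and 47.8 CPM in DMSO replicates 1 to 4. All RGX-104 libraries lay below all DMSO libraries, narrowly so for RGX-104 replicate 6 and DMSO replicate 3. The log2 fold change was -0.94 ± 0.35 (SE, 95% interval -1.67 to -0.21), and it did not pass over all genes (edgeR adjusted p = 1.00, DESeq2 adjusted p = 0.151). Nedd4l averaged 59.8 ± 13.7 CPM in RGX-104 and 76.5 ± 28.9 CPM in DMSO, and Usp15 68.3 ± 15.0 CPM in RGX-104 and 66.0 ± 21.6 CPM in DMSO.

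Co-repressors and co-activators of the SMADs had 11 of 13 genes tested, 7 above and 4 below 0, with a median of 0.08. Runx3, named after its values were seen, could not be tested. It had 1 count over all libraries, which was not read as absence. Ncor1, a subunit of the histone deacetylase complex that SKI recruits, averaged 582 ± 32.3 CPM in RGX-104 and 586 ± 70.8 CPM in DMSO, and the 95% interval of its log2 fold change ran from -0.27 to 0.22. The acetyltransferase Crebbp averaged 342 ± 40.1 CPM in RGX-104 and 323 ± 42.1 CPM in DMSO. Its relative Ep300 stood at 96.1, 70.6, 103 and 115 CPM in RGX-104, against 80.0, 52.5, 63.7 and 68.4 CPM in DMSO (log2 fold change 0.52 ± 0.25, edgeR adjusted p = 1.00), with RGX-104 replicate 6 below DMSO replicate 1.

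In the SMAD-independent branch, which includes the kinase TAK1 (Map3k7), 8 of 9 genes could be tested, 2 above and 6 below 0, with a median of -0.15. Tab1, an activator of TAK1, averaged 19.4 ± 3.42 CPM in RGX-104 and 33.5 ± 10.4 CPM in DMSO (log2 fold change -0.81 ± 0.46 SE), Rhoa 419 ± 57.7 CPM in RGX-104 and 381 ± 31.2 CPM in DMSO, and Rock1 202 ± 17.1 CPM in RGX-104 and 203 ± 14.9 CPM in DMSO. None passed.

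Genes listed as targets of the signal lay on both sides of 0. Of 18 genes listed as induced by TGF-beta, Smad7, Skil and the Id genes included, 15 could be tested. Of these, 9 were above and 6 below 0, with a median of 0.11. Whether TGF-beta induces each of them in these cells was not tested. Junb stood at 261, 316, 338 and 349 CPM in RGX-104 replicates 5 to 8, against 275, 248, 213 and 247 CPM in DMSO replicates 1 to 4, with RGX-104 replicate 5 below DMSO replicate 1. Its log2 fold change was 0.34 ± 0.15 (SE, edgeR adjusted p = 1.00). Cdkn1b, which encodes the cell cycle inhibitor p27, averaged 683 ± 77.3 CPM in RGX-104 and 625 ± 12.6 CPM in DMSO (95% interval of the log2 fold change -0.13 to 0.35). Itgae, the integrin chain CD103 and a classical target in CD8 T cells, is named after its values were seen; it averaged 5.82 ± 4.75 CPM in RGX-104 and 8.94 ± 3.79 CPM in DMSO, close to 1 or a few apparent molecules. Id1, likewise named after its values were seen, had 1.31, 0, 0 and 0 CPM in RGX-104 and 4.01, 4.14, 11.3 and 3.07 CPM in DMSO, also near that limit (edgeR adjusted p = 1.00).

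Of 11 genes that TGF-beta is known to repress in T cells, 6 could be tested, 4 above and 2 below 0, with a median of 0.12. S1pr1, the receptor for exit from lymph nodes, stood at 400.2, 374, 415 and 412 CPM in RGX-104, against 416, 586, 561 and 446 CPM in DMSO. The RGX-104 libraries all lay below the DMSO libraries, narrowly so for RGX-104 replicate 7 and DMSO replicate 1. The log2 fold change was -0.34 ± 0.13 (SE, edgeR adjusted p = 1.00, DESeq2 adjusted p = 0.150). Klf2, which drives S1pr1, averaged 862 ± 56.9 CPM in RGX-104 and 815 ± 61.6 CPM in DMSO. Groups that do not overlap were found in 3 of the 67 further genes (Usp9x, S1pr1 and Id1), against 3.56% of all genes.

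**Figure D4:**
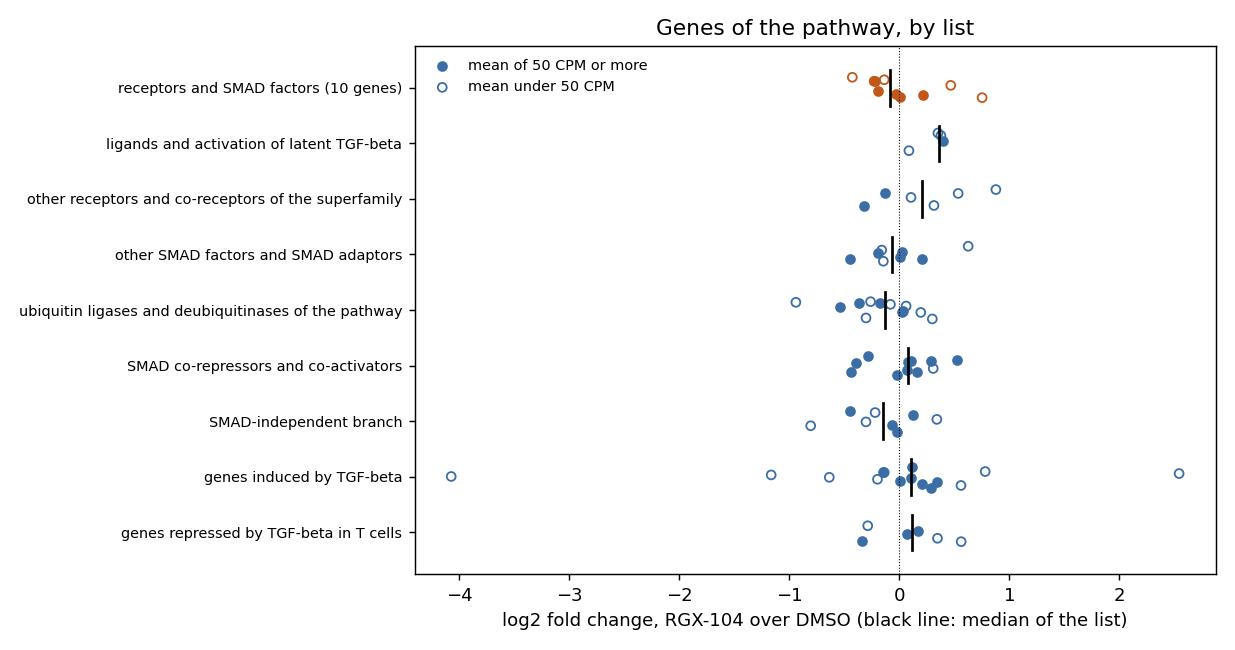
Log2 fold change, RGX-104 over DMSO, of each tested gene of the pathway, by list. Filled points average 50 CPM or more, open points less, and black lines are medians. Points scatter on both sides of 0 in every list except the ligands, whose 4 genes lie above it. Of these 4, Itgav and Lrrc32 had DMSO libraries without a count. The widest values belong to open points.

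Markers of other cells summed to less than the CD8 T cell identity genes in both groups. Those of CD4 and regulatory T cells, which make and answer TGF-beta, summed to 54.2 to 77.7 CPM in RGX-104 and 34.4 to 85.9 CPM in DMSO. B cell markers summed to 97.8 to 148 CPM in RGX-104 and 35.7 to 175 CPM in DMSO, and those of macrophages and monocytes to 8.06 to 17.9 CPM in RGX-104 and 10.1 to 30.9 CPM in DMSO. Natural killer cell markers summed to 0.370 to 4.39 CPM in RGX-104 and 0 to 11.0 CPM in DMSO. Those of stromal cells summed to 68.6 to 122 CPM in RGX-104 and 63.8 to 124 CPM in DMSO. No library held a count of Fcgr1 (macrophages), Ncr1 and Klra8 (natural killer cells) or Pdgfra and Dcn (stromal cells). Sums for B cells, stromal cells, and CD4 and regulatory T cells exceeded the mean levels of Tgfb1, Tgfbr1 and Smad2 (16.9, 20.3 and 20.4 CPM). So did the platelet and megakaryocyte sum, and each of these sums covers more than 1 gene. Whether other cells add to the counts of members was not tested. The smallest two-sided exact permutation p of the 7 marker lists was 0.114, for the CD8 T cell identity genes (adjusted p = 0.800), where 4 against 4 libraries can give 0.0286 at the least.

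**Figure D5:**
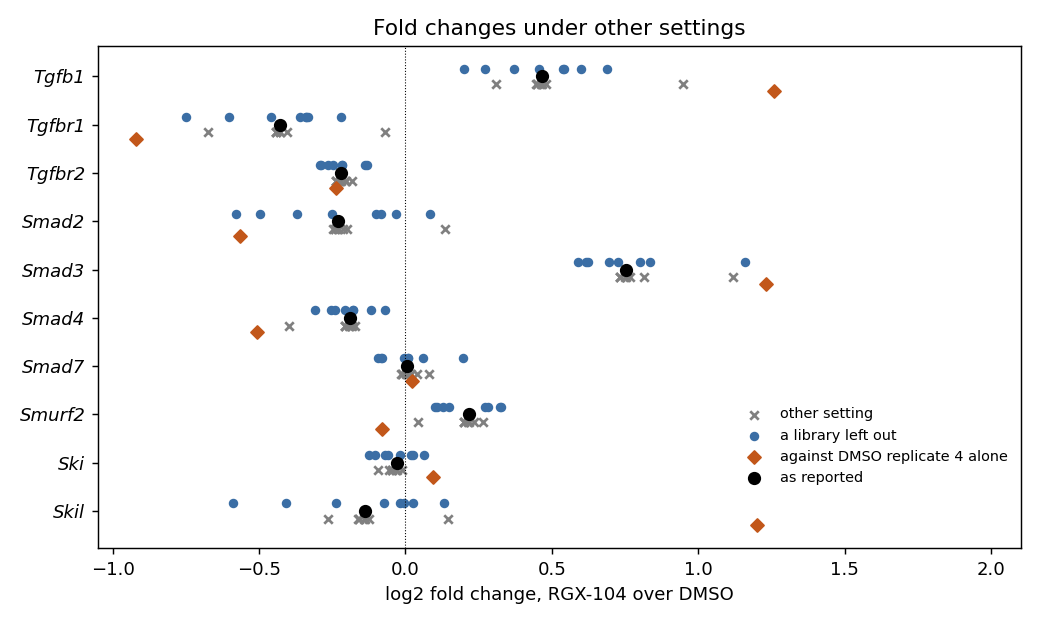
Log2 fold change, RGX-104 over DMSO, of each gene as reported (black) and under other settings: a library left out (blue), another scaling, filter, test or covariate (crosses), and RGX-104 against DMSO replicate 4 alone (diamonds). Skil moves from -0.14 as reported to 1.20 against DMSO replicate 4 alone, and Tgfbr2 stays between -0.29 and -0.13.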

How the data were processed

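Naive mouse CD8+ T cell RNA was measured by 3' end sequencing with a QuantSeq kit, per the labels' protocols. The authors deposited unnormalized counts, 1 whole number per gene symbol and library. The submitters' processing notes name STAR 2.7.8a, R 4.1.0, DESeq2 1.4 and GRCm38. How reads were counted, on which annotation and strand, and whether molecular identifiers were used is not given in the sources used here. In the GENCODE M21 annotation no gene with a row in the table overlaps a member. A 3' end count is not divided by length and cannot show isoforms.

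The test was edgeR's quasi-likelihood test (edgeR 4.0.16, R 4.3.3) on TMM-scaled counts with treatment as the single term. The filter was filterByExpr (minimum count 10), which kept 10037 genes, over which p-values were adjusted (Benjamini-Hochberg, threshold 0.05). The fit was run on simulated counts that held changes only in genes of 50 CPM or more, each larger than that of any member. That run does not cover members under 50 CPM or changes of the size seen in the members. The standard error is the log2 fold change over the root of F, an approximation, and 95% intervals rest on it. DESeq2 1.42.0 and limma-voom (limma 3.58.1), other scalings and filters, a covariate and left-out libraries were alternatives. Apparent molecules per library were estimated, after the data were seen, as the Poisson sample size matching the library's zeros over genes that average 2 to 20 CPM in the other 7. Positions are 1-based.

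The members and lists were chosen with earlier results of these data known. Named are all members and, of each list, called genes, the 2 with the highest mean and the 1 with the smallest p. Groups came from the library labels.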

Additional observations from a re-analysis of the deposited data

Results flagged for a closer look

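Among 74 groups of 4 libraries examined, 2 held a library far from the other 3, fewer than the 1 in 20 that chance gives. Rhoa was at 334 CPM in DMSO replicate 1, while DMSO replicates 2, 3 and 4 lay between 395 and 397 CPM. Natural killer cell markers summed to 11.0 CPM in DMSO replicate 3, and the highest sum elsewhere in DMSO was 1.75 CPM. No library of a member gene stood apart by this measure.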

How the results depend on the processing

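No paired analysis was made, since library numbers run from 1 to 8, none is shared between the groups and no animal is given. Whether libraries of the groups were paired by source is not known. Over 170 alternative values of the 10 log2 fold changes, 17 for each member, none was called, and the lowest adjusted p was 0.430 (Smad3 without a filter). The count of members called stayed at 0 in both directions, and so did that of every pathway list. The sign was kept in 152 values and changed in 18, in 5 members. Smad2 was at 0.14 by limma-voom and between -0.58 and 0.0829 with a library left out. Smad7 was at -0.0121 with DESeq2 size factors and by DESeq2, at -0.0144 with a mean of at least 10 CPM, and between -0.0927 and 0.20 with a library left out. Ski was at 0.0930 against DMSO replicate 4 alone and between -0.13 and 0.0634 with a library left out. Skil was at 1.20 against DMSO replicate 4 alone, at 0.15 with the genes detected as a covariate, and between -0.59 and 0.13 with a library left out. Smurf2 was at -0.0806 against DMSO replicate 4 alone. Over all genes edgeR gave 10 higher and 1 lower. DESeq2 gave 17 higher and 14 lower, the covariate fit 6 higher, limma-voom 3 lower and the fit without a filter 4 lower, and with a library left out (3 lower without DMSO replicate 4) the counts ran from 7 to 11 higher and 1 to 3 lower. The list medians that moved beyond the spread between libraries were the ligands (0.93 by limma-voom), other receptors (1.49 by limma-voom, -0.12 to 0.40 with a library left out), co-repressors and co-activators (-0.0899 against DMSO replicate 4 alone, -0.0544 with the covariate) and the SMAD-independent branch (-0.0676 against DMSO replicate 4 alone, -0.0749 by limma-voom, 0.00726 with the covariate, -0.0878 at a mean of at least 10 CPM, -0.18 to -0.0568 with a library left out). The cause was not tested. The members under 50 CPM have intervals that reach beyond a 2-fold change in at least 1 direction, and whether depth sets their width was not tested.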
